A study of Mus musculus with 8 samples.

Results

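Large intergenic noncoding RNAs (lincRNAs) are spliced or unspliced transcripts that lie between protein-coding genes and have no long open reading frame. The array used here carried 83 probes named as mouse lincRNA exons, of 60915 probes in all. They were chosen by name: every probe that is not a control and whose name holds LINCRNAEXON. Each full name, such as MM9LINCRNAEXON10664+_P1, holds a number and a plus or minus sign, and a probe is called by that number and sign from here on (10664+). The 83 probes carry 71 different numbers, with 50 plus and 33 minus signs. No gene name, coordinate or sequence of these exons was used here, and the files used here do not explain the sign.

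The RNA came from hearts of wild-type male C57BL/6J mice, 8 to 10 weeks old and weighing 24 to 26 g. In the banded group the descending aorta had been tied, which makes the heart pump against a raised pressure and enlarge, and the sham group had a similar operation, which the labels describe no further. Hearts were taken 4 weeks after surgery. There were 4 banded and 4 sham arrays, each from a separately numbered mouse and read in 1 colour (Cy3), with RNA labelled from random primers along the whole transcript. No heart or other cell type marker could be checked, since the files used here pair no probe with those genes.

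As background, large catalogues of mouse lincRNAs were first drawn up from chromatin: a mark of active promoters followed by a mark of transcribed gene bodies, outside known genes. Many lincRNAs are found in few tissues and at lower levels than messenger RNAs. In the heart, noncoding transcripts are known to act on chromatin during development and on the myosin heavy chain locus in pressure overload. In whole hearts, fewer cells of a type and less RNA per cell cannot be told apart.

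Some arrays stood unusually close to each other, partly across the surgery groups. All arrays lay on 1 slide in 2 rows of 4, with banded 1 and sham 2, 3 and 4 in row 1 and banded 2, 3 and 4 and sham 1 in row 2. The 4 close pairs were neighbours on the slide: banded 1 and sham 2, sham 3 and sham 4, banded 2 and banded 3, banded 4 and sham 1. Over 15117 bright probes, the log2 differences within a close pair had a spread of 0.969 to 1.34 times the noise between copies of a spot, where any other pair (24 in all) had 2.61 to 5.26 times that noise. The closest pair was banded 1 with sham 2 (0.969), then sham 3 with sham 4 (0.990), banded 4 with sham 1 (1.17) and banded 2 with banded 3 (1.34). The pairs of one group were counted as 1 sample each in group means given with n = 3, while the pairs across groups, as close by this measure, carry different surgery labels and were kept as separate samples. Unless stated otherwise, the fits and plots take the 8 arrays as separate. Exchanging the labels of banded 1 and sham 1 would make row 1 the sham group and row 2 the banded group, so that the row difference would be the surgery difference. The labels were kept as given, and whether these arrays carry the right ones was not tested. The 75th percentile of signal was 143 to 255 units on banded arrays, 178 to 206 on sham arrays, and no exon spot was saturated.

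A smaller share of the exon probes than of the other probes was well above background in heart. Of the 83, 24 (28.9%) were well above background on all 8 arrays, 7 on 5 to 7 arrays, 14 on 1 to 3 arrays and 38 (45.8%) on none. "Well above background" is a flag that the scanner software sets for each spot. Over all probes, the lowest signal with this flag ran from 15.7 units (banded 2) to 19.2 units (banded 3). Taking at least 4 of 8 arrays as detected, 31 exon probes (37.3%) were detected, against 211 of 649 lincRNA probes from mouse lists (32.5%), 363 of 1104 from human lists (32.9%) and 59.5% of the remaining 59079 probes. Counted per array, 29 to 36 exon probes were well above background in banded hearts and 29 to 34 in sham hearts. The highest count was on banded 1, the brightest array, and the lowest on banded 3, the dimmest, and on sham 2. On each array, 33 to 41 exon probes were brighter than the brightest of the 15 negative probes, taken as the median of their copies. With the laxer flag for a positive and significant signal, 61 exon probes would count as detected. The share of other probes under that flag is not given here.

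**Figure D1:**
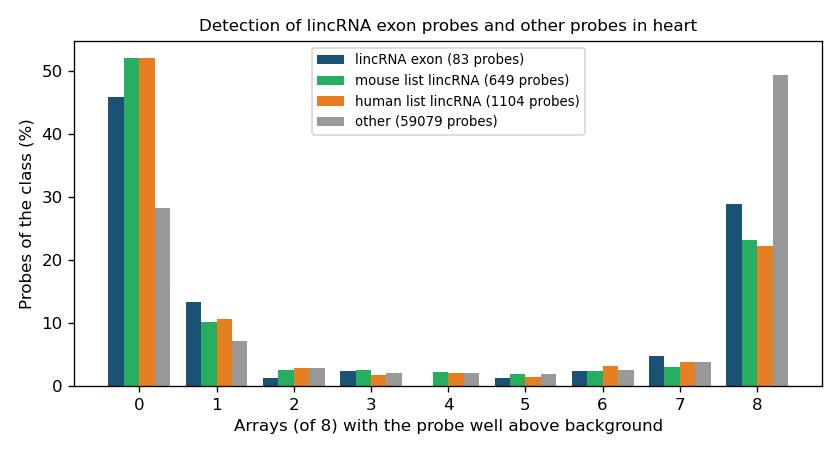
Share of probes (vertical axis, %) by the number of arrays on which they were well above background (horizontal axis), for the 83 lincRNA exon probes, the mouse and human list lincRNA probes and all other probes. Most exon probes fall at either end: 38 of 83 on no array and 24 on all 8.

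Probe 10664+ was by far the brightest exon probe. Its processed signal was 64112, 37620, 31576 and 50469 units on banded arrays 1 to 4 and 39887, 48154, 51754 and 56148 units on sham arrays 1 to 4. On each array it ranked between places 338 and 553 of all probes. Next came 10490+, with 13542 to 21805 units in banded and 18588 to 22598 units in sham hearts, ranking between 894 and 1284. These are ranks of signal: how strongly a probe binds its target also sets its brightness, so they do not order the amounts of RNA.

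The rest of the detected exons lay far below. Probes 11569-, 10105-, 11939-, 10294-, 10343+ and 11060- gave between 248 and 1189 units, and 11806+ and 10667+ between 116 and 347 units. From here on a level is the log2 signal relative to the 75th percentile of its array, so that a level of 0 is as bright as that percentile. The levels of 10664+ were 7.98, 7.90, 7.79 and 8.18 in banded and 7.81, 7.87, 8.12 and 8.11 in sham hearts. Its groups overlapped almost fully. Those of 10490+ were 6.42, 6.43, 7.02 and 6.85 in banded and 6.86, 6.55, 6.64 and 6.80 in sham hearts, again with overlap. The 10 brightest exons had mean levels down to 0.19, and the dimmest of the 31, 11564+ and 11593-, had mean levels of −3.37 and −3.03. Just outside the limit of 4 arrays lay 11752+ and 11109-, each well above background on 3 arrays, with processed signals of 11.6 to 28.8 and 8.22 to 30.8 units.

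**Figure D2:**
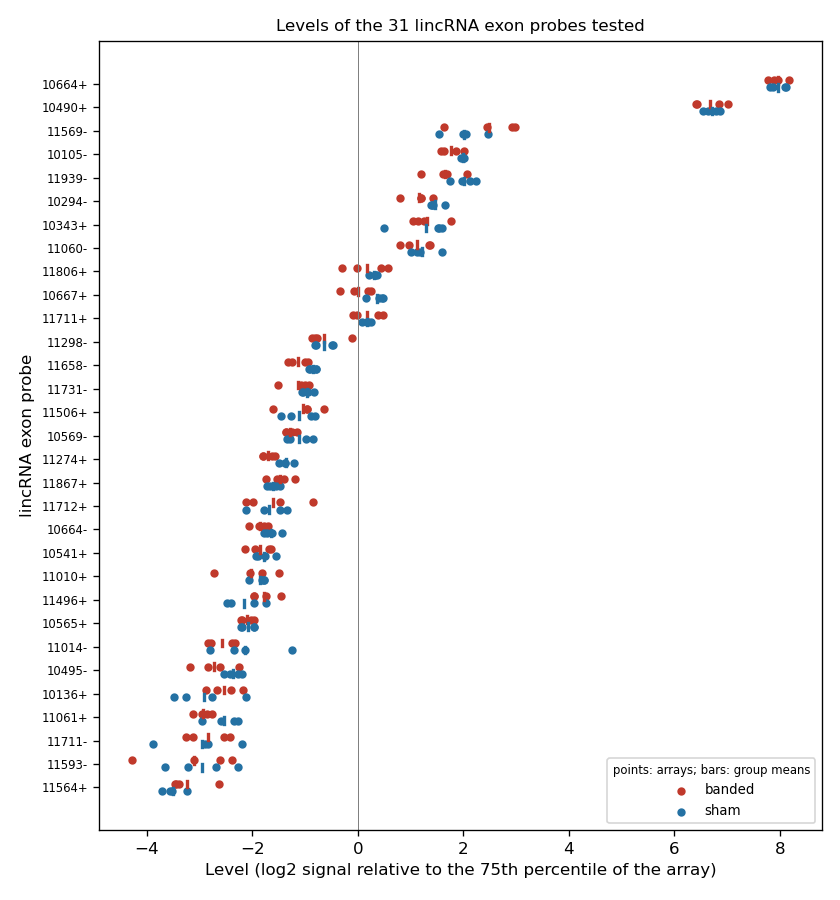
Level of each of the 31 detected lincRNA exon probes (horizontal axis, log2 signal relative to the 75th percentile of the array), brightest probe at the top. Points are single arrays, red for banded and blue for sham, and bars are group means over 4 arrays; 10664+ and 10490+ stand apart from the rest at levels of about 8 and 7.

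For 12 numbers the array carried a plus and a minus probe, and in most of these at most 1 of the pair was detected. Both were detected for 2 numbers (10664 and 11711), 1 of the pair for 5 numbers, and neither for 5. Probe 10294- gave 248 to 588 units over the 8 arrays, while 10294+ gave 3.85 to 18.1 units and was well above background on 1 array. Likewise 11569- gave 599 to 1189 units, and 11569+ 3.55 to 11.2 units and was well above background on none. The other numbers with 1 detected sign were 10495 and 11014 (minus) and 11712 (plus). For 10664 the plus probe was the brightest exon of all and the minus probe gave 41.5 to 74.4 units, still well above background on all 8 arrays. For 11711 the plus probe gave 134 to 331 units on 8 arrays well above background, and the minus probe 12.1 to 44.4 units on 6. Over all 83 probes, 17 of 50 plus probes (34.0%) and 14 of 33 minus probes (42.4%) were detected.

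A further set was well above background on a single array only. Of the 83 exon probes, 11 (13.3%) were well above background on exactly 1 array, against 10.2% of mouse list, 10.6% of human list and 7.14% of other probes. The clearest was 12036-, with 172 units on banded 4 (software error estimate 17.6 units) and 4.00 to 14.6 units on the other 7 arrays. Sham 1, the array most like banded 4 over bright probes, stood at 14.6 units. Probe 11320+ gave 43.5 units on banded 1 and 6.75 to 12.3 units elsewhere, with 10.4 on the close array sham 2. Probes 11622- (37.4 units) and 11978- (22.7 units) were well above background on sham 1 alone, with 8.57 and 3.81 units on the close array banded 4. Others stood little above their next highest array: 12051- had 22.7 against 18.7 units, 11982+ 19.6 against 17.8 and 10106+ 23.4 against 16.4. Probe 11712- had 17.2 units on banded 2 and 18.2 on sham 2, where it was not well above background. In all, 4 of the 11 were well above background on banded 1, 2 each on sham 1 and sham 4, and 1 each on banded 2, banded 4 and sham 3. A value on 1 of 8 arrays has no replicate, and no comparison was made with these probes.

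The spread of the detected exons between arrays was near that of other probes. The SD of the level over all 8 arrays had a median of 0.28 over the 31 probes and ran from 0.12 (10565+) to 0.68 (11593-), against a median of 0.31 over all probes tested, 0.36 for mouse list and 0.34 for human list lincRNAs. In 17 of the 31 (54.8%) it was at most 0.3, as in 46.3% of all probes tested. The software put the error of a spot at 10.0% to 37.8% of its signal over these probes and arrays. The median SD was 0.26 for the 10 brightest exons and 0.30 for the other 21.

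The 6 most variable were 11593-, 11569-, 11711-, 11014-, 10136+ and 11712+. Of these, 11569- was bright and varied in step with the place on the slide: its levels were 1.63 and 1.54 in the close pair banded 1 and sham 2, 2.05 and 1.99 in sham 3 and 4, 2.92 and 2.98 in banded 2 and 3, and 2.46 and 2.47 in banded 4 and sham 1. Arrays of a close pair thus differed by an SD of only 0.045, while the SD over all arrays was 0.54. The dimmest of the 6 did not do this. For 11593-, the levels were −3.11, −2.61, −2.39 and −4.27 in banded and −2.27, −2.68, −3.66 and −3.21 in sham hearts, and the SD within close pairs (0.75) was above that over all arrays (0.68). A single array set much of the spread of 11014-, which stood at −1.24 in sham 1 and between −2.84 and −2.13 on the other 7 arrays. In 11711-, sham 1 (−3.87) was the lowest and sham 4 (−2.19) the highest. The highest array for 11712+ was banded 4 at −0.85, with the other 7 between −2.12 and −1.35.

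The comparison of banded with sham hearts asks which lincRNA exons differ in pressure overload. At an adjusted p of 0.05, 0 of the 31 exon probes were called (limma with Benjamini-Hochberg adjustment over the 35785 probes tested, smallest adjusted p = 0.586), as were 0% of all probes. The count changed without banded 1 and sham 1, which leaves surgery and slide row the same split. In that fit 3839 of the 35785 probes tested and 1 of the 31 exons were called. That exon, 11569-, went from a log2 difference of 0.49 to 0.93 (limma adjusted p = 0.0346). This fit counted banded 2 and banded 3, and sham 3 and sham 4, as separate samples although they are close pairs. It was not run with close arrays averaged. With banded 1 and sham 1 kept, averaging close arrays of one group gave 0 exon calls (limma, lowest adjusted p = 0.995), as over 8 arrays. At an unadjusted p under 0.05, 1 exon probe was lower and 0 were higher in banded hearts, together 3.23% of the 31, where 3.89% and 3.19% of all probes were, together 7.08%. The estimate was below 0 for 21 of the 31 (67.7%), against 49.7% of all probes tested. The median log2 difference of the exons was −0.10, beside 0.002 over all probes, −0.18 for mouse list and −0.17 for human list lincRNAs. In those lists too 0 probes were called, and 17 mouse list probes were lower and 0 higher at an unadjusted p under 0.05, as were 35 and 8 human list probes.

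The errors were about as large as most of the differences. Regardless of sign, the log2 differences of the 31 exons had a median of 0.16, below the median SE of 0.19. For 27 of them the 95% interval of the difference, unadjusted, lay within 2-fold in either direction, and over all probes tested that share was 79.2%. With close arrays of one group averaged, the median SE was 0.21 and the interval lay within 2-fold for 26 exons. The exceptions over 8 arrays were 11569-, 11014-, 10136+ and 11593-, whose intervals reached beyond 2-fold on one side, from −1.14 at the lowest to 1.19 at the highest. For the bright 10664+ the ratio of banded to sham was 0.990 with an interval from 0.781 to 1.25, and for 10490+ it was 0.975 with an interval from 0.737 to 1.29.

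**Figure D3:**
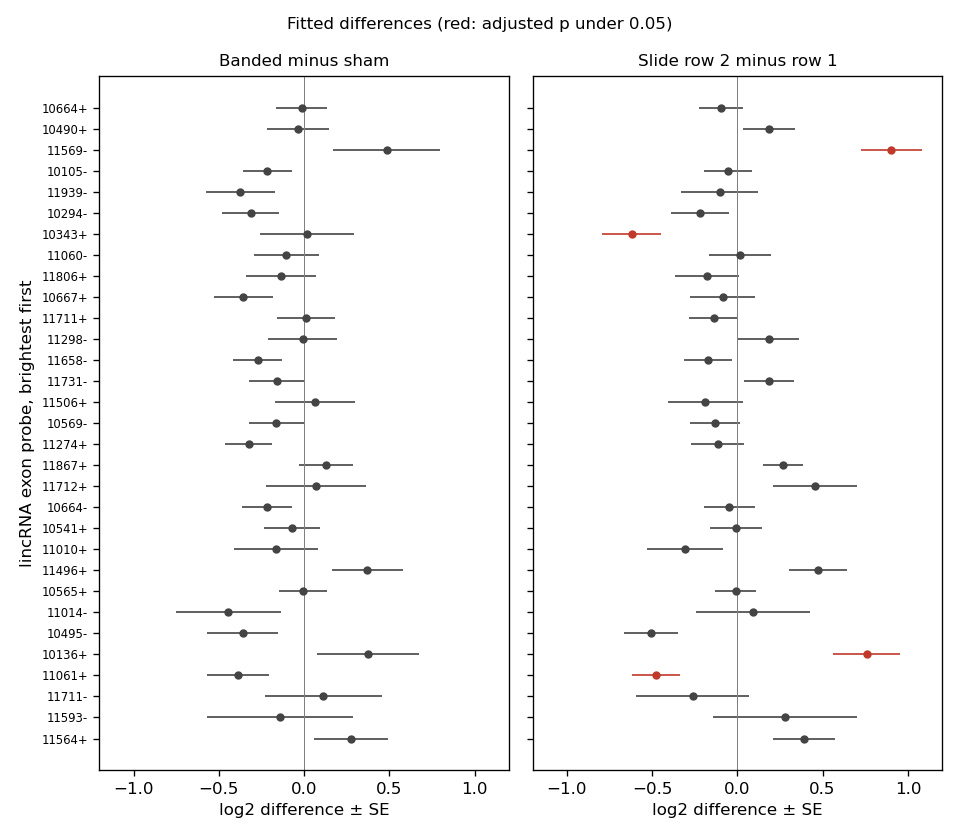
Fitted log2 differences of the 31 detected exon probes, brightest at the top, banded minus sham on the left and slide row 2 minus row 1 on the right; points are estimates over 8 arrays and bars are 1 SE. On the left 0 probes and on the right 4 probes (red) had a limma adjusted p under 0.05.

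In 2 of the 31 exons (6.45%) every banded array was below every sham array, and in 0 was every banded array above, where 2.1% and 1.22% of all probes tested did so. Probe 11274+ was at −1.79, −1.79, −1.56 and −1.62 in banded and at −1.37, −1.39, −1.50 and −1.22 in sham hearts. The gap between the groups, from −1.56 to −1.50, was narrow. Its group means were −1.70 ± 0.09 (SD, n = 3) and −1.37 ± 0.015 (SD, n = 3). The small sham SD comes from averaging sham 3 and 4, since over 4 arrays the SD was 0.12 in either group. The ratio over 8 arrays was 0.799, with an interval from 0.645 to 0.990 (limma adjusted p = 0.586). The log2 difference of this probe was −0.32 with an SE of 0.14, and −0.33 with an SE of 0.16 once close arrays were counted once (limma adjusted p = 0.995). Within slide row 1 it was −0.42 and within row 2 −0.29, with 1 array on one side in each row.

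Probe 11658- was the other. It stood at −0.99, −1.24, −0.95 and −1.31 in banded and at −0.79, −0.91, −0.91 and −0.79 in sham hearts, so that the groups were separated by 0.04. Its group means were −1.13 ± 0.16 (SD, n = 3) and −0.85 ± 0.06 (SD, n = 3). The log2 difference was −0.27 with an SE of 0.14 (limma adjusted p = 0.586), or −0.28 with an SE of 0.18 with close arrays averaged (limma adjusted p = 0.995), with −0.12 within row 1 and −0.37 within row 2.

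The other 4 of the 6 exons with the smallest p on the lower side did not pass either, each with a limma adjusted p of 0.586. Probe 11061+ had a log2 difference of −0.39 (SE 0.18), 10667+ of −0.36 (SE 0.17), 10294- of −0.31 (SE 0.17) and 11939- of −0.37 (SE 0.20). With close arrays averaged these became −0.32 (SE 0.22), −0.32 (SE 0.19), −0.27 (SE 0.17) and −0.29 (SE 0.24), each with a limma adjusted p of 0.995. The levels of 10667+ were −0.07, −0.33, 0.25 and 0.19 in banded and 0.47, 0.16, 0.39 and 0.45 in sham hearts. Only sham 2 kept its groups from standing apart. Probe 10294- was lowest on banded 3 (0.80) and highest on sham 3 (1.65), with the other 6 arrays between 1.21 and 1.43. For 11939-, banded 2 (1.21) was the lowest and sham 1 (2.24) the highest.

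On the higher side the smallest p belonged to 11496+, at −1.96, −1.45, −1.74 and −1.97 in banded and −1.75, −2.40, −2.47 and −1.97 in sham hearts. The groups overlapped, and the log2 difference of 0.37 (SE 0.21) did not pass (limma adjusted p = 0.586), nor did that of 0.28 (SE 0.23) with close arrays averaged (limma adjusted p = 0.995). The estimates for 11569- (0.49, SE 0.31), 10136+ (0.37, SE 0.30), 11564+ (0.27, SE 0.21), 11867+ (0.13, SE 0.16) and 11711- (0.11, SE 0.34) did not pass either, with limma adjusted p-values from 0.592 to 0.899. In 4 of these 6 exons the estimate had opposite signs within row 1 and row 2: −0.48 and 1.13 for 11711-, −0.23 and 0.32 for 11569-, 0.29 and −0.31 for 10136+, and −0.10 and 0.09 for 11867+.

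Between the slide rows, 4 exons passed with 8 arrays counted separately and 0 with each close pair averaged to 1 sample (2 per row). Their share was below that of all probes. At an adjusted p of 0.05 (limma, 8 arrays counted separately), 2 exon probes were higher and 2 lower in row 2, together 12.9% of the 31, against 12.6% and 7.11% of all probes, together 19.7%. Probe 11569-, whose levels are given above, was 1.87-fold brighter in row 2, a log2 difference of 0.90 with an SE of 0.18 (limma adjusted p = 0.00797). Probe 10136+ was also brighter there, at −2.88, −3.49, −2.76 and −3.26 in row 1 (banded 1, sham 2, 3 and 4) and −2.17, −2.41, −2.67 and −2.11 in row 2 (banded 2, 3 and 4, sham 1). It had a ratio of 1.69 (limma adjusted p = 0.0250).

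Probe 10343+ was dimmer in row 2, with 1.77, 1.60, 1.55 and 1.51 in row 1 and 1.15, 1.06, 1.25 and 0.49 in row 2, a ratio of 0.650 (limma adjusted p = 0.0342). Probe 11061+ was dimmer there as well, with −2.77, −2.34, −2.28 and −2.58 in row 1 and −3.13, −2.94, −2.86 and −2.94 in row 2, a ratio of 0.719 (limma adjusted p = 0.0420). In all 4 the rows did not overlap. That held for 4 of the 31 exons with row 2 above and 3 with row 2 below, where 16.2% and 10.2% of all probes did so. With close pairs averaged, the lowest limma adjusted p was 0.114, that of 10136+. The place on the slide, an exchange of the labels of banded 1 and sham 1, and other properties of these samples cannot be told apart.

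**Figure D4:**
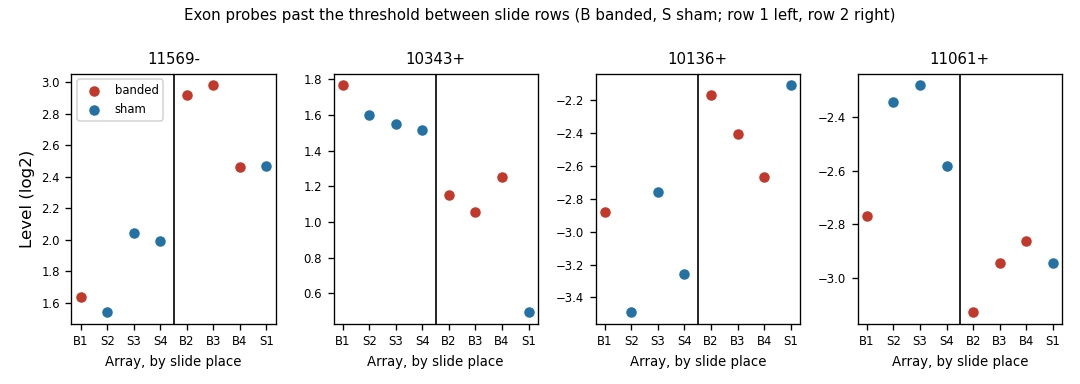
Levels (log2) of the 4 exon probes past the threshold between slide rows, 1 panel each with its own vertical scale, by place on the slide; B is banded (red), S is sham (blue), row 1 is left and row 2 right of the line. In each panel the 4 arrays of row 1 do not overlap the 4 of row 2, while the colours are mixed within each row.

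When the surgery fit also had a term for slide row, again 0 of the 31 passed (smallest limma adjusted p = 0.741), as did 0 of all probes. At an unadjusted p under 0.05, 2 of the 31 were lower and 1 was higher. In this fit 1978 of the 35785 probes tested (5.53%) were so in either direction. The log2 difference of 11569- then fell to 0.045 (SE 0.22) and that of 10136+ to −0.009 (SE 0.24). That of 10343+ moved from 0.02 to 0.44 (SE 0.15, limma adjusted p = 0.741). For 11274+ it was −0.35 (SE 0.14).

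Over the exons as a group, the ranges for close pairs overlapped those for the other pairs of arrays. The measures here differ from the one used over bright probes, so the exons were not ranked against those. The correlation of deviations from the probe mean, across the 31 exons, ran from −0.37 (banded 4 with sham 1) to 0.45 (sham 3 with sham 4) within the close pairs, and from −0.61 to 0.46 in the other 24 pairs of arrays. These are 31 probes on shared arrays, not independent replicates. The median size of the log2 difference between arrays was 0.13 to 0.28 within close pairs and 0.18 to 0.47 in the others. In 20 of the 31 exons the SD between arrays of a close pair was below that over all 8 arrays.

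**Figure D5:**
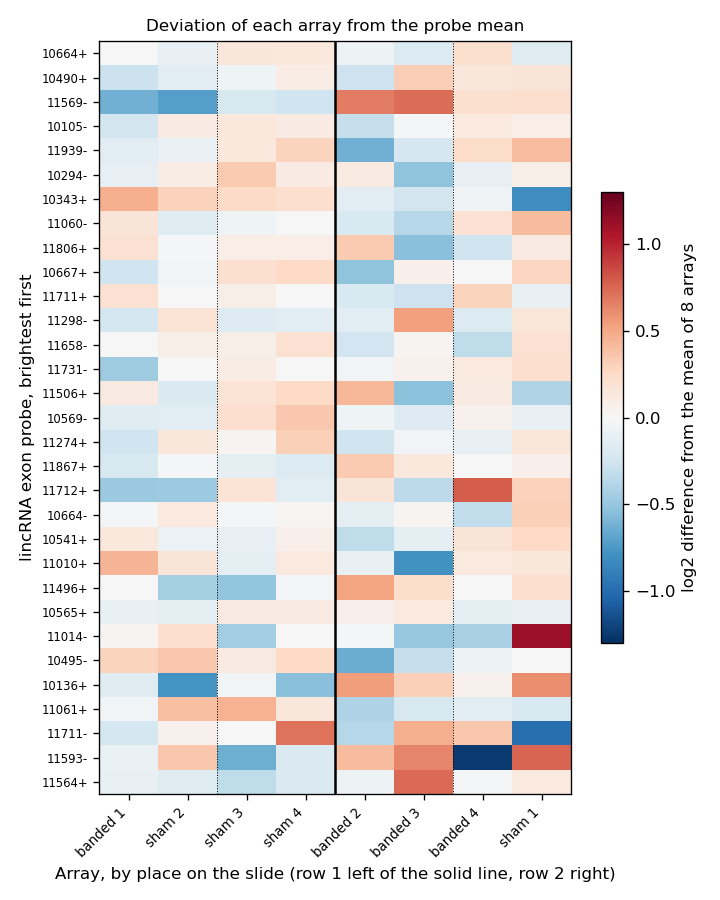
Deviation of each array (columns, by place on the slide; solid line between rows, dotted lines between close pairs) from the mean of 8 arrays for the 31 detected exon probes (brightest at the top), in log2 units. Bands that follow the slide are plain for 11569-, while the dimmest probes at the bottom vary from array to array, also within close pairs.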

How the data were processed

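Spot intensities came from Agilent Feature Extraction 11.0.1.1, per the submitters' processing notes, and the design build is mm9, per the file headers. The deposited processed intensity is background-subtracted and detrended within an array, per the file headers, and flags of 0 or 1 come with it. Every exon probe is 1 spot, and 0 exon spots carried an outlier flag. After 15 negative probes were set aside, log2 signals were averaged per probe over unflagged spots and centred on the 75th percentile of each array. Probes well above background on at least 4 of 8 arrays, with unflagged values on at least 2 arrays of each group, were tested: 35785 of 60915. The second condition was added after the files were seen. Groups were compared with limma 3.58.1 (lmFit, eBayes; R 4.3.3) over all 8 arrays, two-sided, with Benjamini-Hochberg adjustment over all probes tested. The fit was tested on simulated data with independent arrays. Those data had no slide rows or close pairs, so they cannot show how the fit behaves with them. Matplotlib 3.10.9 (Python 3.11.15) drew the figures.

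An alternative came from the authors' deposited log2 intensities of 60902 probes; against the scanner values its slopes were 0.984 to 1.01 and its column medians 4.92, so its scale is log2 and it runs the same way, while its centring method is unknown. The exon probes, the other lists and the tests were chosen with earlier results of these data known. Named exons are the 10 brightest, the 6 most variable, the 6 with the smallest p in each direction of surgery, the 4 with the smallest p between rows, and the 2 nearest the detection limit on each side; other exons named were chosen after their values were seen. No exon was seen on all 4 arrays of one group and 0 of the other. Cell type markers were not analysed here. The number of arrays limits the precision. Mouse numbers name separate animals and, by the labels, pair no samples.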

Additional observations from a re-analysis of the deposited data

Results flagged for a closer look

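Dixon's ratio was taken in 50 groups of 4 arrays (the named exons and 2 measures per array), and in 4 of them 1 array stood far from the rest. The usual rate of about 1 in 20 groups holds for independent arrays. Each group here held a close pair and arrays of both slide rows, so that rate may not apply. Sham 1, the only sham array in slide row 2, was involved in 2 of the 4: it was lowest in its group for 10343+ (0.49, the next array 1.51) and highest for 11752+ (−2.63, the next −3.82). For 11564+ the array apart was banded 3 (−2.64, the next −3.39), and for 10294- it was sham 3 (1.65, the next 1.42).

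Outside the comparison, 7 exon probes with too few bright arrays to test were well above background on at least 1 banded and 0 sham arrays, and 5 on at least 1 sham and 0 banded arrays. That is 13.5% and 9.62% of the 52 exon probes not tested, near the 11.6% and 9.20% of all probes not tested. Among the 7, 12036- reached 172 units on banded 4, where the highest sham array had 14.6, and 11320+ reached 43.5 on banded 1, where the highest sham array had 10.6. Probe 11940+ was seen on banded 2 and 4, with up to 20.3 units against at most 7.70 in sham. The others were near the background limit: 10294+ (18.1 units), 11600- (18.9 units) and 11982+ (19.6 units) on banded 1, and 11712- (17.2 units) on banded 2. For 11712- the highest sham signal was 18.2 units, above the banded one but not flagged as well above background.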

How the results depend on the processing

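With surgery, 0 exons passed under every setting run except 1, the fit without banded 1 and sham 1 (added after seeing the data). There 11569- passed at a log2 difference of 0.93 (limma adjusted p = 0.0346). It was 1 of 31 exons, beside 3839 of the 35785 probes tested. In that fit surgery and slide row cannot be told apart. That fit counted the arrays of a close pair as separate samples. Leaving out 1 array at a time gave 0 called in each case. At an unadjusted p under 0.05 the exon count was 1 (in brackets the share of all probes tested, here 7.08%). It was 0 with normexp on median signals (6.32%), the replicate block (3.98%) and close arrays averaged (2.02%). Normexp was added, since the files used here have no mean signal column for the planned form. The count was 3 with the slide row (5.53%) and 4 with the slide pair as a random block (6.31%). It was 5 of 83 without the background filter (4.50%) and 6 without banded 1 and sham 1 (28.7%). Leaving out 1 array, it was 2 without banded 1 (19.9%), banded 3 (3.83%) or sham 3 (3.69%), and 3 without sham 1 (13.0%). It was 0 without sham 4 (2.99%) and 1 without banded 2 (2.38%), banded 4 (10.5%) or sham 2 (6.94%). The median log2 difference of the exons (−0.10) stayed between −0.15 and −0.04 except without the filter, where it was 0.010. A pairing by mouse number could not be checked, since same-numbered arrays always lay in opposite slide rows. Over all probes tested, the deviations of same-numbered arrays from their own group means had correlations of −0.65 to −0.05. With the replicate block the exon median was −0.10 with 0 called.

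Exons past the threshold between rows numbered 4, but 2 without the filter, 2 with all 8 arrays required, 2 with surgery in the model, 0 with close pairs averaged, and 1 to 3 leaving out 1 array (1 without sham 2 or without sham 4; 2 without banded 2, banded 3 or sham 3). Over all probes the calls between rows numbered 7035 of 35785. They were 4715 of 60913 without the filter and 7028 of 29579 with all 8 arrays required. Of 35785 probes, they were 4892 with surgery in the model, 1404 with close pairs averaged, and 4620 to 6397 leaving out 1 array. Detected exons numbered 61 rather than 31 with the positive-and-significant flag. Over all probes, surgery calls were 0 except 2 without banded 1, 1 without banded 2 and 3839 without banded 1 and sham 1.

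Estimates of exons that were not called changed sign as follows; the cause was not tested. For 10664+ (−0.02): 0.045 with the row, 0.16 with the pair, 0.069 with close arrays averaged, and −0.088 to 0.042 leaving out 1 array (0.005 without banded 2, 0.042 without banded 3, 0.031 without sham 3, 0.029 without sham 4). For 10343+ (0.02): −0.013 in the authors' table and with quantile normalization, −0.25 (without sham 1) to 0.12 leaving out 1 array (−0.14 without banded 1), −0.40 without both. For 10490+ (−0.04): 0.050 without banded 1, 0.048 without banded 2, 0.015 without sham 1, 0.10 without banded 1 and sham 1. For 11060- (−0.10): 0.0024 with the pair, 0.0021 without banded 3, 0.017 without sham 1. For 11593- (−0.14): 0.067 with normexp, −0.38 to 0.25 (without banded 4) leaving out 1 array, 0.087 without sham 1 and 0.091 without banded 1 and sham 1. For 11711- (0.11): −0.20 (without sham 1) to 0.36 leaving out 1 array (−0.03 without banded 3), −0.10 without banded 1 and sham 1. For 11712+ (0.07): −0.21 with the row, −0.18 (without banded 4) to 0.24 leaving out 1 array (−0.08 without sham 2). For 11867+ (0.13): −0.0059 with the row, −0.049 with the pair. For 10136+ (0.37): −0.0086 with the row. For 11806+ (−0.14): −0.27 to 0.023 (without banded 3) leaving out 1 array. Slide and scan as blocks were not run, since all arrays shared 1 of each. Signals near background limit the dim exons most.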
